A study of Mus musculus with 3 samples.

Results

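Chromatin accessibility was examined at 8 genes of antigen presentation by major histocompatibility complex (MHC) class I molecules, of 21853 protein-coding genes in the annotation: the heavy chain genes H2-K1, H2-D1 and H2-T23, the light chain gene B2m, the transporter genes Tap1 and Tap2, the tapasin gene Tapbp and the transactivator gene Nlrc5. The rule lists the genes by name and uses no measured value, though it was set when earlier results of these data were known, and each was taken with 10 kb on each side of its gene body. The data were 3 DNase-seq libraries of natural killer cells, all of 1 group, from primary cells of male B6CASTF1/J mice aged 2 months, the F1 hybrid of the C57BL/6 and CAST strains. There was therefore no treated, mutant or other control group, and no comparison between conditions. The 3 libraries carry different biosample labels and the same donor label, and no sort or gate is named. The labels do not say whether separate animals were used, so the spread between replicates may be technical.

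Class I molecules present peptides from inside the cell at its surface, and natural killer cells both carry them and read them on other cells, which they spare when inhibitory receptors bind class I. A heavy chain pairs with B2m (beta-2 microglobulin), and the Tap1 and Tap2 proteins form the transporter that moves peptides from the proteasome into the endoplasmic reticulum, where tapasin helps to load them. Classical class I heavy chain genes and B2m are known for a promoter module, called SXY, in which RFX proteins bind the X1 box, CREB and ATF factors the X2 box and NF-Y the Y box, a reversed CCAAT box. Nlrc5 does not bind DNA by itself and is recruited by the factors on this module. Further upstream, class I promoters are known for an NF-kB site and a site for interferon regulatory factors (IRF).

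The enzyme DNase I cuts where DNA is accessible between nucleosomes. A peak is an interval with many cuts, and a footprint is a short stretch of accessible DNA that a bound protein shields from cutting. Around the members a library held a mean of 188 footprints, of which 152.3 lay in peaks. Replicates 1, 2 and 3 held 40484, 84564 and 81854 peaks and 101990, 239483 and 222990 footprints, so replicate 1 had fewer sites everywhere. Read depth is unknown from these files, and peak signal was therefore compared as a percentile among all peaks of its own library, where 100 is the strongest, or as a ratio within a library. Such a percentile is not free of the length of the peak list. The promoter of every member stood at its lowest percentile in replicate 1, the shortest list. The part of list length in the SDs below was not tested. Of 10 natural killer marker genes, 8, 10 and 10 had an open promoter in replicates 1, 2 and 3, and the promoters of Ncr1, Prf1 and Gzmb, which encode the receptor NKp46, perforin and granzyme B, were open in all 3. Klrb1c and Tbx21 had no promoter peak in replicate 1, and Klrk1 stood at percentile 45.8, 50.7 and 69.5 in replicates 1, 2 and 3. Of 8 B cell markers, 6, 8 and 7 were open. The summed signal of the B cell markers was 0.833, 2.66 and 1.39 times that of the B2m promoter in replicates 1, 2 and 3, and that of the natural killer markers 3.35, 1.90 and 3.72 times. Of 8 T cell markers 2, 6 and 4 were open, and of 6 myeloid markers 2, 3 and 3. Among the T cell markers, Cd3d and Lef1 were open in all 3 libraries, and Cd4 and Cd8a had no promoter peak in any. Lef1 stood at percentile 60.6, 75.3 and 74.4 in replicates 1, 2 and 3, and Bcl11b at 77.5 and 75.0 in replicates 2 and 3. The part of other cell types in the values below was not tested.

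The sequences that carry the footprints are shown first. Of the 8 genes, 6 have an entry in the RefSeq promoter table (GRCm38.p6, coordinates as in mm10), the reference sequence of C57BL/6J and not of the hybrid's CAST chromosome. Tap2 and Nlrc5 were not among them. Sequences run 5′ to 3′ along the gene's strand, and capitals mark bases that lay in a footprint in at least 2 of the 3 libraries. Promoters are shown for H2-K1, on the minus strand (chr17:34000348-34000547), and B2m, on the plus strand (chr2:122147487-122147685), because one heavy chain and the light chain carry the same module on different chromosomes.
H2-K1: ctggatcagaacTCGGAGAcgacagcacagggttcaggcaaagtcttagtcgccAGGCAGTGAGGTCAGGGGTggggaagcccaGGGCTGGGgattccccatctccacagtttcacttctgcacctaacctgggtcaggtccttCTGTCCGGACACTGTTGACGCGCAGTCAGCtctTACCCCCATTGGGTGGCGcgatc
B2m: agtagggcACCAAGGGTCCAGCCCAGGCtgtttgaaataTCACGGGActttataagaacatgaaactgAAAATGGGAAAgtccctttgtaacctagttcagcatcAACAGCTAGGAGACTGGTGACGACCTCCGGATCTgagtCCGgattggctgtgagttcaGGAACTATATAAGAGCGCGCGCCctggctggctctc

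The next lines set the 30 bases that start at the X2 word TGACG side by side, so that the Y box word ATTGG can be seen at the end of the first 3 and is not in the fourth. They lie at chr17:34000359-34000388 (minus strand) for H2-K1, chr17:35262993-35263022 (plus) for H2-D1, chr2:122147609-122147638 (plus) for B2m and chr17:34187470-34187499 (plus) for Tap1. The last line gives 30 bases around the CCAAT box of H2-T23 at chr17:36032736-36032765 (minus). Most of the footprinted bases before its RefSeq start site lay there, and its promoter peak held other footprints past the start site. By GENCODE, the stretches of H2-D1 and H2-T23 fall in a 5′ untranslated exon of a longer transcript, that of Tap1 in one of Psmb9, and those of H2-K1 and B2m lie before the first exon.
H2-K1 site: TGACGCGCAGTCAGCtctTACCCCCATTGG
H2-D1 site: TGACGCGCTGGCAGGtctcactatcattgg
B2m site: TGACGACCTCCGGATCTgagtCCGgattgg
Tap1 site: TGACGACAGAGGGTCctgccctcaatctgg
H2-T23 site: gttttCTAAAAGCCaATCAGCGACGCAGAG

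In all 4 genes that had the word TGACG before the start site, it lay wholly inside a footprint in every library. Among promoters open in every replicate that hold TGACG in the 250 bases before their start site, 25.1% had it wholly inside a footprint in every replicate (647 of 2578). This share is not matched for signal. The 4 genes were also the 4 members above percentile 90 in every replicate, a level reached by 18% of all genes. The entries of H2-K1 and H2-D1 are near copies, with 90.7% of aligned bases identical, so they are not separate cases. The word is common, in 20.8% of 16514 promoters of this length, on either strand. In the members it stood at bases -41 to -37 from the RefSeq start site in H2-K1, -101 to -97 in H2-D1, -78 to -74 in B2m and -86 to -82 in Tap1. The footprints around it differed by few bases between libraries in the map of upstream footprints, and this was the only searched word that lay wholly inside a footprint in all 3 libraries in more than 1 member. Other words, such as the CCAAT box and the NF-kB site, were covered in part.

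**Figure D1:**
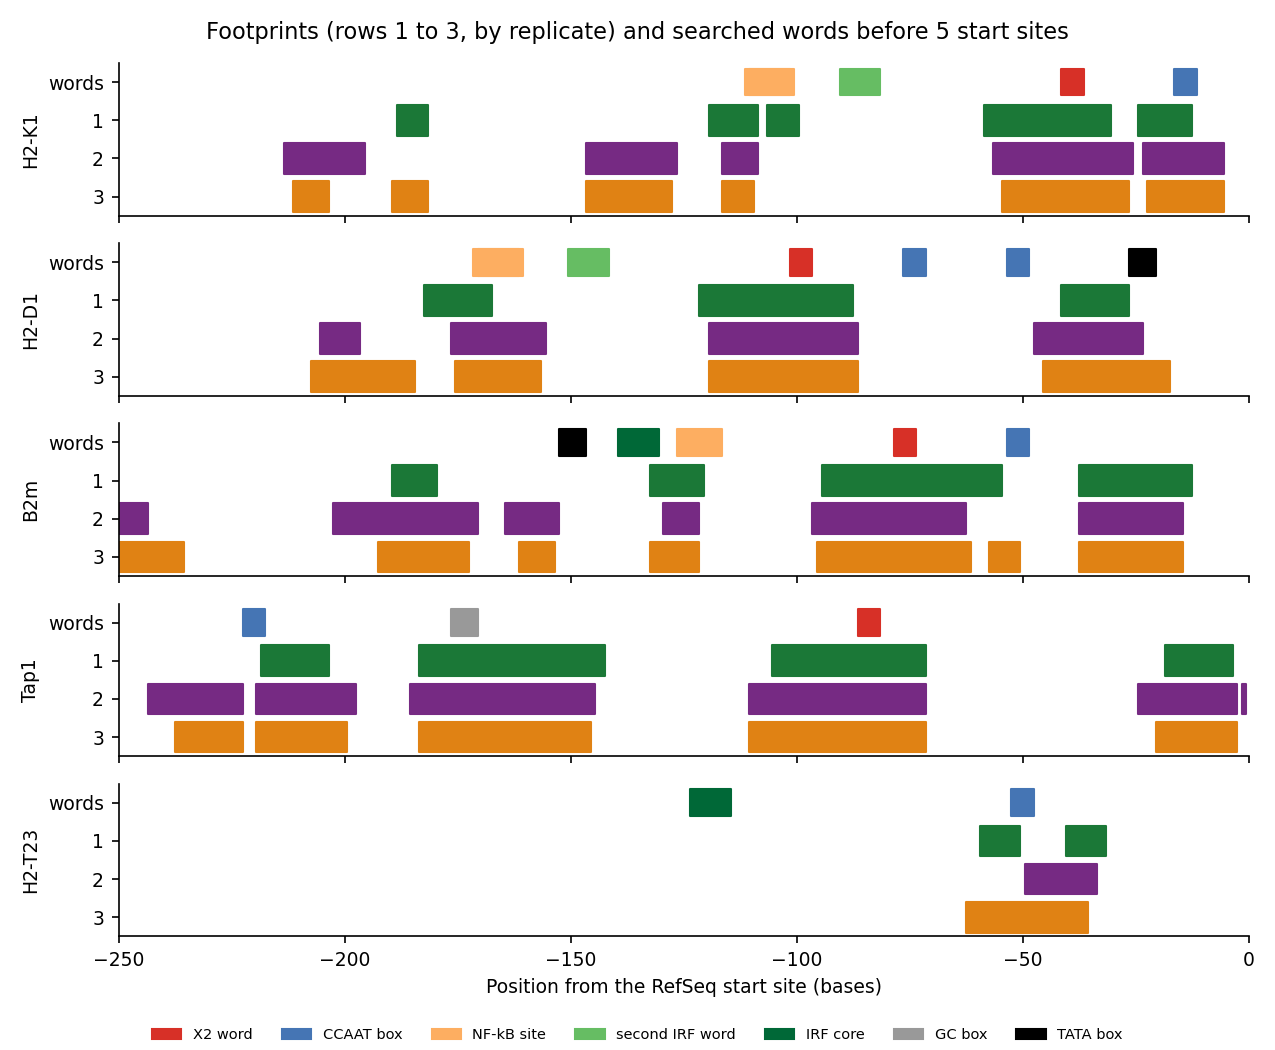
Footprints before 5 start sites: the x axis is the position from the RefSeq start site in bases, rows 1 to 3 of each panel are the footprints of that replicate, and the top row marks the searched words. A footprint covers the X2 word TGACG (red) in every replicate of H2-K1, H2-D1, B2m and Tap1, while the CCAAT box (blue) 25 bases further on is covered in every replicate only at H2-K1, and there not wholly in replicate 1.

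The X2 word and the Y box word ATTGG followed each other with 25 bases between their first bases in H2-K1, H2-D1 and B2m. A pair of TGACG or TGATG and ATTGG, starting 12 to 30 bases apart on the same strand, was found in 1.68% of all promoters. In H2-D1 a TGATG overlapping the TGACG gave another such pair at 28 bases. The footprints treated the 3 Y boxes differently. At H2-K1, ATTGG lay inside a footprint by 80%, 100% and 100% of its bases in replicates 1, 2 and 3. At H2-D1 it lay outside footprints in all 3 libraries, and at B2m in replicates 1 and 2, with 60% of its bases inside in replicate 3. A CCAAT box on either strand was present in all 6 members with an entry (36.0% of all promoters), and in none of them did it lie wholly inside a footprint in all 3 libraries. The share over open promoters with a CCAAT box was 9.39%. The CCAAT boxes of Tapbp lay outside its peaks.

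The upstream NF-kB site was found, by name, in H2-K1, H2-D1 and B2m, against 4.13% of all promoters. Its cover varied with the library. H2-D1 and H2-K1 each had 2 overlapping matches. The upstream one lay inside footprints by 40%, 100% and 100% in replicates 1, 2 and 3 at H2-D1, and by 80%, 30% and 20% at H2-K1. At B2m it was 60%, 50% and 50%. Among promoters open in every replicate that hold an NF-kB site, 2.90% had it wholly inside a footprint in every replicate. IRF words were present and lay mostly outside footprints. GAAANNGAA was found in H2-T23 and B2m (6.99% of promoters), and GAANNGAAA, a word added after the H2-K1 sequence was seen, in H2-K1 and H2-D1 (5.96%). GAANNGAAA at bases -90 to -82 of H2-K1 and -150 to -142 of H2-D1 lay outside footprints in all 3 libraries, as did GAAANNGAA in H2-T23, and in B2m 22.2%, 0% and 22.2% of its bases were inside. Cover of these words is rare in general. Of open promoters that hold them, 2.29% had GAAANNGAA and 1.37% GAANNGAAA wholly inside a footprint in every replicate. A GC box, GGGCGG, was found in Tap1 and Tapbp (44.4% of promoters hold one). At bases -176 to -171 of Tap1 it was covered in all 3 libraries, and at bases -51 to -46 of Tapbp in replicate 3 alone. Of open promoters with a GC box, 44.1% had it wholly inside a footprint in every replicate. The word TATAAA was found in H2-D1 and B2m (11.9%), and in H2-D1 it was covered by 0%, 50% and 100% in replicates 1, 2 and 3. The interferon gamma site TTCNNNGAA (6.64%), the ETS word CGGAAG (17.9%), the T-box word GGTGTGA (3.10%), the AP-1 word TGANTCA (6.13%) and the CTCF site by name (0.866%) were not found in these 6 windows. TGTGGT, a RUNX word (12.2%), was found in Tapbp alone, outside footprints and outside the peaks there.

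All 8 members had an open promoter, meaning a peak within 500 bp of a coding start site, in every library. Over all protein-coding genes this was so for 51.3% in every replicate and for 60.4% in at least 1. A footprint in the promoter was likewise found in every replicate for 8 of 8 members, against 48.7% of all genes. A promoter above percentile 90 in every replicate, a limit set after the values were seen, was found for 4 of 8 members, H2-K1, H2-D1, B2m and Tap1, against 18% of all genes. The median of the members' mean percentiles was 95.0, with a range of 71.2 to 99.9, where the median over all promoters open in every library was 89.6. Among those open promoters alone, the members spread over nearly the whole scale, from H2-T23 at percentile 18.6 ± 2.08 to H2-D1 at 99.4 ± 0.622 (SD, n = 3). On that scale Tap2, at 49.9 ± 0.551, was in the middle of all open promoters, and Nlrc5, at 41.1 ± 4.39, below it.

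**Figure D2:**
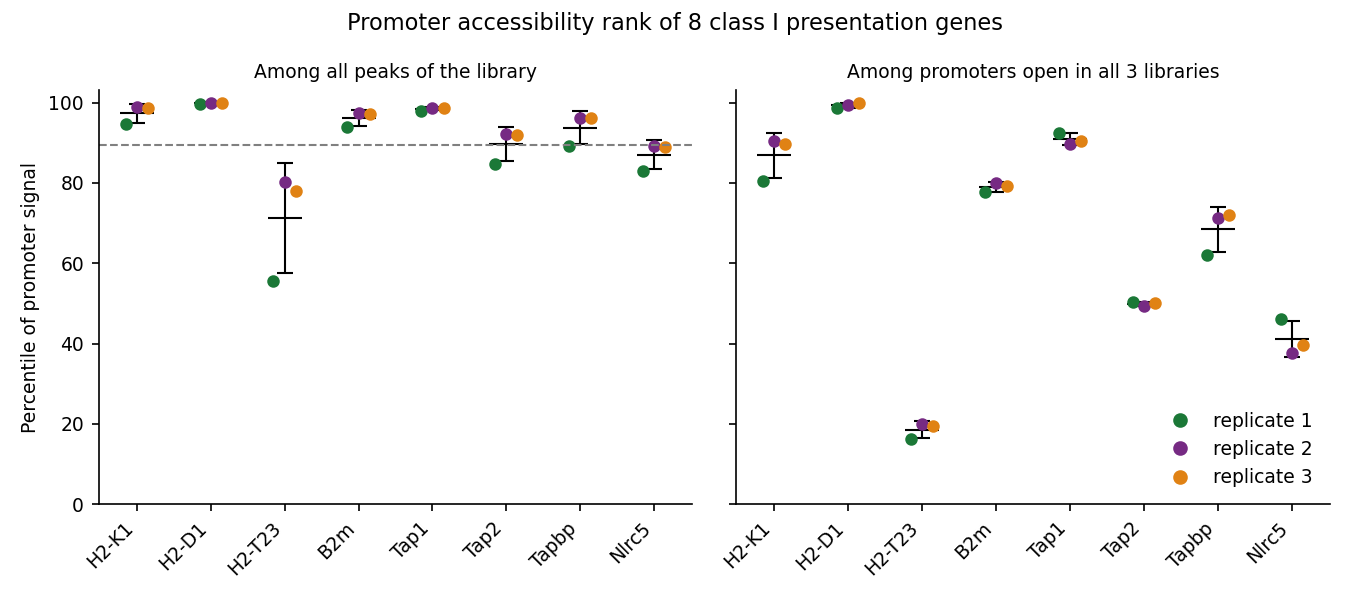
Percentile of the strongest promoter peak (y axis) of each member in each replicate (points), with the mean and SD over 3 replicates (black), among all peaks of the library (left) and among promoters open in all 3 libraries (right). The dashed line is the median of all open promoters, 89.6; H2-D1 is highest and H2-T23 lowest in both panels.

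H2-D1 (ENSMUSG00000073411, chr17:35262730-35267499, plus strand) encodes a classical heavy chain, the D molecule. Its promoter peak had a signal of 11.99, 33.2 and 39.8 in replicates 1, 2 and 3, which put it at percentile 99.6, 99.9 and 99.98 of the library. It was the highest of the 8 in every library. The peak lay 251 to 261 bp past the first base of the gene in the GENCODE annotation and ended close to the RefSeq start site, 35263094, inside a 5′ untranslated exon of the longer transcript.

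H2-K1 (ENSMUSG00000061232, chr17:33996017-34000347, minus strand) encodes the other classical heavy chain, the K molecule. Its promoter signal was 6.59, 19.7 and 20.2 in the 3 replicates, at percentile 94.6, 98.8 and 98.6. This was below H2-D1 in each library, although the promoter entries of these 2 genes share 206 of 227 aligned bases (90.7%). The middle of the peak lay 34 to 44 bp before the start site. The footprints covered 76, 104 and 96 bases of the 280 bp of the merged peak, and 54 bases in all 3 libraries.

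H2-T23 (ENSMUSG00000067212, chr17:36029773-36032855, minus strand) encodes the heavy chain of Qa-1, which presents leader peptides of other class I chains to the CD94/NKG2 receptors of natural killer cells. Its promoter signal was 1.22, 2.70 and 2.65, at percentile 55.5, 80.1 and 78.1. It was the lowest of the 8 in every library. Only 5 of the 200 bases before the RefSeq start site lay in footprints of all 3 libraries, against 41 in H2-K1, 55 in H2-D1, 73 in B2m and 87 in Tap1. Tapbp, whose RefSeq start site is 33919478, had 0. Its peak there (chr17:33919441-33919680) lies mostly past that start site, so few of the 200 bases are in it. Of the 240 bp of this peak, 40 were footprinted in all 3 libraries.

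B2m (ENSMUSG00000060802, chr2:122147686-122153083, plus strand), the shared light chain, is the one member on chromosome 2. Its promoter signal was 6.23, 14.99 and 15.2, at percentile 93.9, 97.4 and 97.2. Among promoters open in every library it stood at 77.6, 80.0 and 79.3, so its rank on that scale moved little between replicates. Of the 200 bases before its start site, 99 lay in footprints of at least 2 libraries and 73 in those of all 3, so most of its footprinted bases were shared by every library.

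Tap1 (ENSMUSG00000037321, chr17:34187553-34197225, plus strand) shares its promoter peak with Psmb9, an interferon-induced subunit of the immunoproteasome that starts in the opposite direction. The signal of this shared peak was 8.89, 19.2 and 20.7, at percentile 98.0, 98.7 and 98.8. The peak cannot be divided between the 2 genes. Footprints in all 3 libraries covered 107 of its 360 bp.

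Tap2 (ENSMUSG00000024339, chr17:34203527-34216321, plus strand), the partner of Tap1 in the transporter, had a promoter signal of 3.61, 7.30 and 7.61, at percentile 84.8, 92.2 and 91.9. Its strongest promoter peak (chr17:34204361-34204600) lay 391 to 401 bp past a coding start site at 34204080. At the first base of the gene there was a weaker peak in replicates 2 and 3, at signal 0.951 and 1.63, and none in replicate 1. With promoters of 250 bp on each side, Tap2 was therefore the one member without an open promoter in every library.

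Tapbp (ENSMUSG00000024308, chr17:33915899-33929292, plus strand), tapasin, had promoter peaks in all 3 libraries at 2 sites. The first, at the gene's first base, is shared with Zbtb22, a zinc finger gene that starts beside it on the same strand, and had a signal of 4.60, 9.93 and 9.99. The second (chr17:33919441-33919740) lies at later start sites of Tapbp and had a signal of 3.76, 12.2 and 12.8. Of these 2 sites, the shared one was stronger in replicate 1 and the later one in replicates 2 and 3. A weaker promoter peak (chr17:33920283-33920640) was found in replicates 1 and 3, at signal 1.69 and 2.05. Another (chr17:33919073-33919147) was found in replicate 3 alone, at 0.632. At its strongest promoter peak Tapbp stood at percentile 89.1, 96.1 and 96.1.

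Nlrc5 (ENSMUSG00000074151, chr8:94434356-94527272, plus strand), the transactivator of the class I genes, had a promoter signal of 3.26, 5.31 and 5.68, at percentile 82.9, 89.2 and 89.0. The promoter of the regulator thus ranked below those of its target genes H2-K1, H2-D1, B2m and Tap1 in each library, and above that of H2-T23. Of the 240 bp of its peak, 49, 53 and 55 bases were footprinted, but only 4 bases in all 3 libraries. Among promoter peaks that were the strongest of their gene in a library, only the one that Tapbp shares with Zbtb22 had fewer, at 0 bases in all 3. Weaker promoter peaks were not counted in this way.

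As a ratio to the B2m promoter of the same library, the order of the other members was the same in every library, apart from Tap1 and H2-K1, which changed places in replicate 2. H2-D1 stood at 1.92, 2.21 and 2.63 times B2m, Tap1 at 1.43, 1.28 and 1.36 times and H2-K1 at 1.06, 1.31 and 1.33 times. The ratios of Tap1 and H2-K1 overlap and are not separated by their spread. Below B2m came Tapbp, with a mean ratio of 0.798 ± 0.0536, Tap2 with 0.523 ± 0.0496, Nlrc5 with 0.417 ± 0.0920 and H2-T23 with 0.183 ± 0.0105 (SD, n = 3). Tap2 and Nlrc5 overlap over libraries, though Tap2 was higher within each. With 1 group of 3 libraries no test was made, since an exact test over 3 signs cannot reach the usual threshold.

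**Figure D3:**
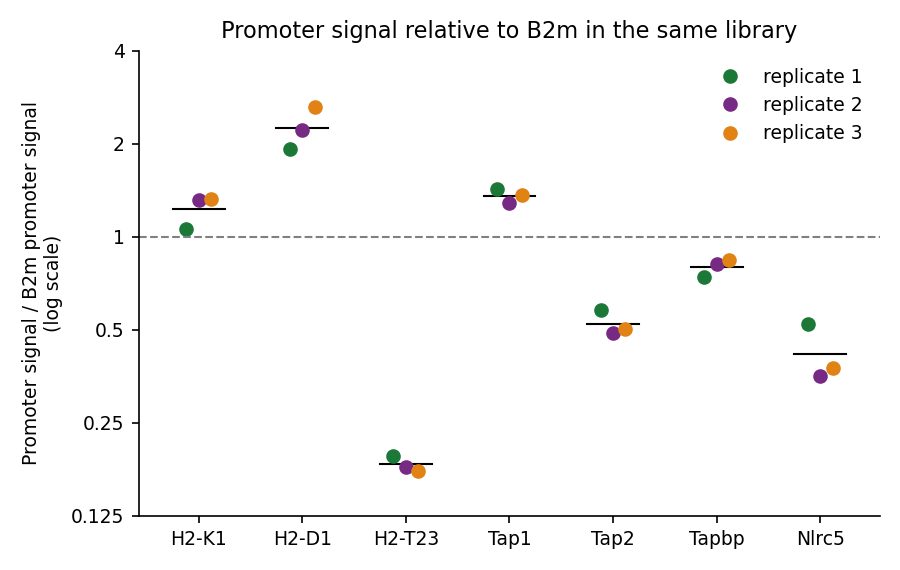
Promoter signal of 7 members divided by that of B2m in the same library (y axis, log scale), one point per replicate, with the mean as a line. H2-D1, Tap1 and H2-K1 lie above 1 (dashed) in every replicate and the other 4 genes below it.

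Around the members, 77 separate accessible regions were found, of which 59 were present in at least 2 replicates and 32 in all 3. Of the 59, 24 lay at promoters of members or neighbours, 4 in exons, 14 in introns and 17 between genes. The windows held 35, 67 and 68 peaks and 102, 238 and 224 footprints in replicates 1, 2 and 3. Replicate 1 added no region of its own, and 24 regions were found in replicates 2 and 3 alone. The 59 regions became 34 without replicate 2 and 33 without replicate 3. Peaks in all 3 libraries made up 41.6% of the regions, against 35.3% of regions genome-wide. The members had a median of 8.5 regions in at least 2 replicates, and all protein-coding genes a median of 2. Promoters of neighbouring genes are among these regions, such as that of Daxx before Tapbp at percentile 95.9 ± 3.90 and that of Psmb8, another immunoproteasome subunit, between Tap1 and Tap2 at 88.8 ± 6.83 (SD, n = 3). By length of window, the deposited intervals with a q-value of at most 0.05 covered from 1.22% at Nlrc5 in replicate 1 to 19.5% at Tap1 in replicate 2.

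**Figure D4:**
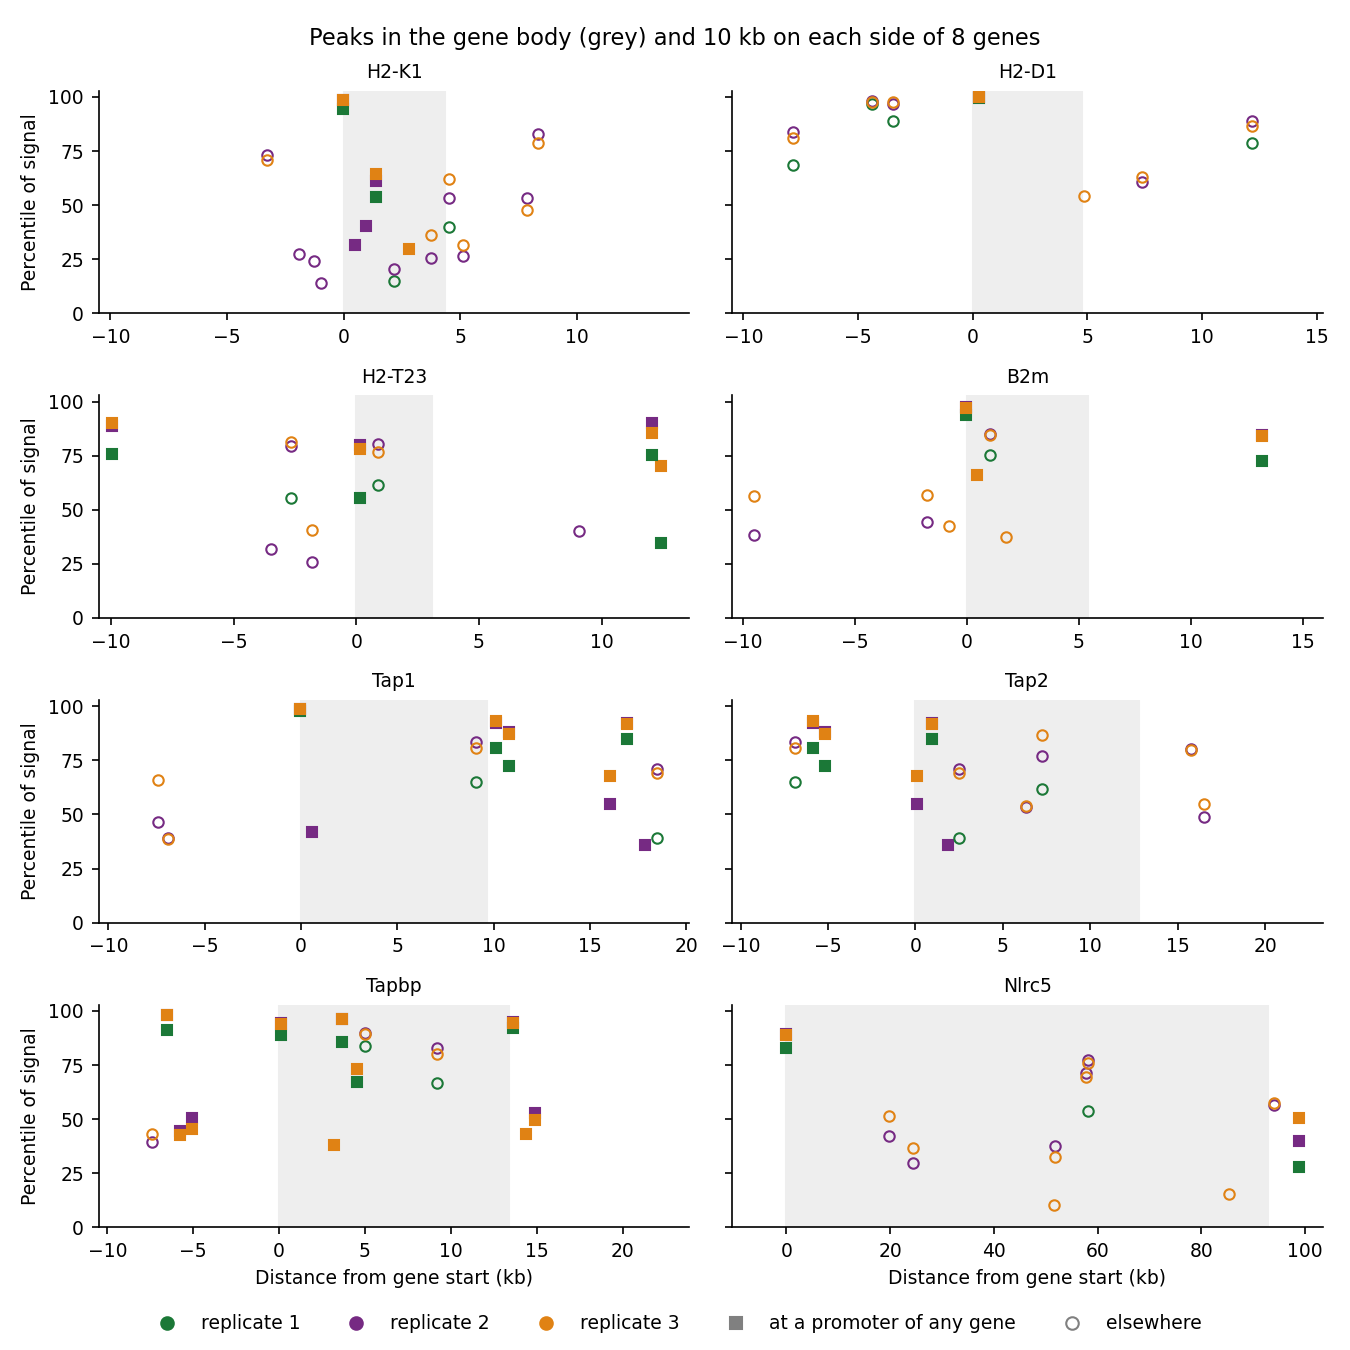
Peaks around each member: the x axis is the distance from the gene's start in kb along its strand, the y axis the percentile of signal within the library, colours are replicates, squares are peaks at a promoter of any gene and open circles peaks elsewhere. H2-D1 has 3 upstream regions, at mean percentiles 97.5, 94.4 and 77.8, with no other protein-coding gene starting in the window, and the highest point around H2-T23 is at 90.3.

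H2-D1 had the strongest regions away from promoters. The region at chr17:35258241-35258440, 4389 bp before the gene, had a signal of 7.77, 16.4 and 16.9 and a mean percentile of 97.5 ± 0.676. The region at chr17:35259161-35259380, 3459 bp before the gene, had a signal of 4.55, 13.3 and 16.2 and a mean percentile of 94.4 ± 4.78 (SD, n = 3). Both lie outside protein-coding genes, no other protein-coding gene starts in the window, and both ranked above the promoters of Tap2 and Nlrc5 in every library. Their sequences on the plus strand are shown because no other region away from a promoter around the members ranked as high.
H2-D1 distal region: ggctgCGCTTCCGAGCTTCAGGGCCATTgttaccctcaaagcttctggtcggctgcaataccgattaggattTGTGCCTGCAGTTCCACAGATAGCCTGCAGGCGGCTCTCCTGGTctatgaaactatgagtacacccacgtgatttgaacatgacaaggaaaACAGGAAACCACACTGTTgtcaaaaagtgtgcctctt
H2-D1 proximal region: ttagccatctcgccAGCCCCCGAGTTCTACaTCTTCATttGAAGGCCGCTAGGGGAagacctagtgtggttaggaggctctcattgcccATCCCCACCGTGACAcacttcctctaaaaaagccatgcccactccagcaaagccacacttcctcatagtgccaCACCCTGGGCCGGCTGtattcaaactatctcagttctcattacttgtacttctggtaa

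In the distal region, 85 of 200 bases were footprinted in at least 2 libraries and 53 in all 3. It held the ETS word CGGAAG and the RUNX word TGTGGT, both on the minus strand and both covered in replicates 2 and 3 and uncovered in replicate 1. In the proximal region, 70 of 220 bases were footprinted in at least 2 libraries and 38 in all 3, and its one searched word, TGTGGT, lay outside footprints. RUNX and ETS factors are known to act in natural killer cells. Over all 35 regions of the members away from promoters, TGTGGT was found in the central 150 bp of 10 regions (28.6%), against 22.2% of 48779 such regions genome-wide. CTCF sites were found in 6 (17.1%), against 16.5%. The shares of TGTGGT and CTCF are near the background. The ETS word CGGAAG was found in 0 of the 35 centres, against 5.73%. The ETS and RUNX words of the distal region do not lie wholly in its central 150 bp and are not in these counts.

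The other members had weaker regions away from promoters. For Tapbp the strongest was an intronic region (chr17:33920821-33921000) at percentile 87.8 ± 3.33, and for B2m one in its first kilobases (chr2:122148581-122148840, intron of B2m and of the overlapping gene Patl2) at 81.8 ± 5.60. For Tap1 it was an exon near the end of the gene (chr17:34196538-34196780) at 76.3 ± 10.03, which also falls in the window of Tap2. Tap2 had 10 regions in at least 2 replicates, and 6 without replicate 2 or without replicate 3. An intronic one (chr17:34210601-34210920) stood at 75.2 ± 12.5 and varied from 61.9 in replicate 1 to 86.8 in replicate 3. For H2-T23 an exonic region (chr17:36031841-36032080) stood at 72.9 ± 10.2, as high as the gene's own promoter within the spread. Of the 31-base words in this region, 32.9% were found once in the reference genome, against 65.7% in the promoter peak. The effect of this on the comparison was not tested. Nlrc5, the longest member, had 8 regions in at least 2 replicates against a median of 4 for genes of like length (0.8 to 1.25 times), and 3 without replicate 2 or without replicate 3. Its strongest away from the promoter lay far inside the gene (chr8:94492301-94492680, intron) at 69.0 ± 13.1 (SD, n = 3). For H2-K1 the strongest was found in replicates 2 and 3 only (chr17:33991921-33992100), at percentile 82.7 and 78.8, and it held a CTCF site.

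Class I heavy chain genes are close copies of one another, and sequence found more than once cannot be assigned to one gene by short reads. Of all 31-base words in the gene body, 64.5% were found once in the reference genome for H2-K1, 66.6% for H2-D1 and 50.5% for H2-T23. For the other 5 members this share was between 87.1% at Nlrc5 and 97.5% at B2m. In the promoter peaks it was 89.2%, 85.8% and 65.7% for H2-K1, H2-D1 and H2-T23 and 100% for the other 5. H2-T23, the lowest promoter, was thus also the one with least unique sequence, and the part of unassigned reads in its rank was not tested. The regions before H2-D1 had 100% and 98.9% unique words. Reads from CAST alleles were set against a C57BL/6J reference, and the effect of this at these polymorphic genes was not tested.

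**Figure D5:**
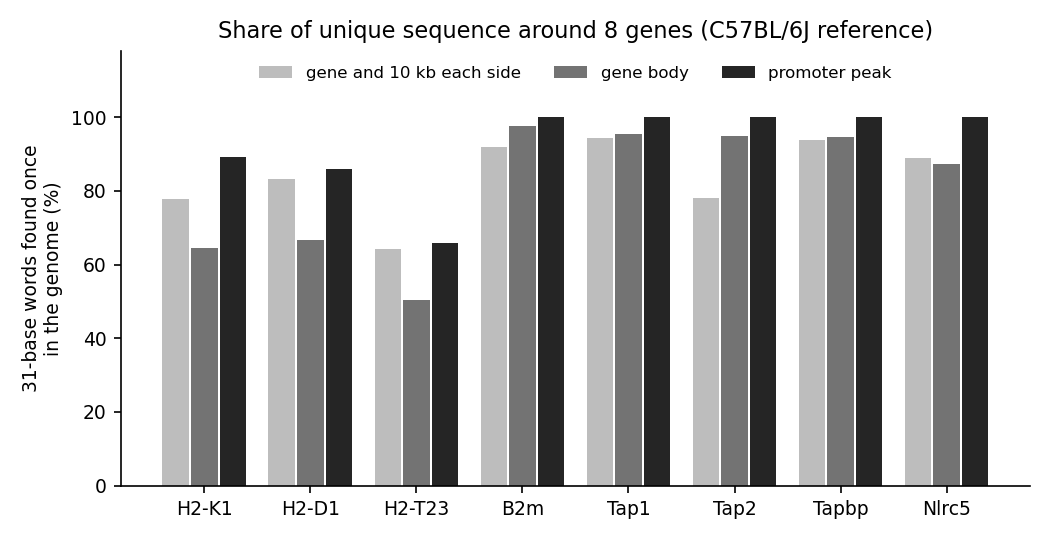
Share of 31-base words that occur once in the reference genome (y axis, %) in the gene with 10 kb on each side, in the gene body and in the promoter peak of each member. The 3 heavy chain genes are lowest in the gene body, at 64.5%, 66.6% and 50.5%, and below 100% in the promoter peak.

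Among 24 other class I genes, 12 had an open promoter in all 3 libraries and 8 in none. The highest were H2-Q4 at percentile 97.5 ± 2.28, H2-Q7 at 96.4 ± 2.78, H2-M3, which presents formylated peptides, at 95.1 ± 2.19, and H2-Q6 at 94.8 ± 1.84. The lowest of the open ones were H2-Q2 at 30.6 ± 6.32 and Ulbp1, a ligand of the receptor NKG2D, at 43.1 ± 13.1 (SD, n = 3). No promoter peak was called in any library at H2-Q1, H2-T3, H2-M2, H2-M5, H2-M9, H2-M10.1, Fcgrt, the neonatal Fc receptor, or Azgp1. The share of 50% open in every library was close to that of all genes. The Q genes are also near copies of H2-K1 and H2-D1, so their values are uncertain for the same reason.

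Partners of the pathway were open throughout. All 31 of 31 had an open promoter in all 3 libraries, against 51.3% of all protein-coding genes. Their median percentile was 92.7, where the median over all promoters open in every library was 89.6. The highest were Nfya, a subunit of NF-Y, at 99.9 ± 0.0742, the interferon gamma receptor chain Ifngr1 at 99.6 ± 0.283, the chaperone Calr at 99.5 ± 0.328 and Rfxank, a subunit of RFX, at 99.0 ± 0.447. The lowest were the other receptor chain, Ifngr2, at 61.2 ± 17.2 and the immunoproteasome subunit Psmb10 at 66.4 ± 11.9 (SD, n = 3). Nfya and Rfxank, whose proteins bind the SXY module, ranked above Nlrc5 in each library.

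Class II genes, which present peptides from outside the cell and are typical of B cells and other professional presenting cells, were open in all 3 libraries in 8 of 10 cases. The share over all protein-coding genes was 51.3%. They ran from H2-DMa, which loads class II peptides, at 98.4 ± 1.26 to H2-DMb1 at 66.9 ± 19.9 (SD, n = 3). The 2 without a peak in replicate 1 were H2-Oa and Ciita, the class II transactivator and relative of Nlrc5. Ciita stood at percentile 67.2 and 39.6 in replicates 2 and 3, below Nlrc5 in each. B cell markers, given above, were also lowest in replicate 1 and highest in replicate 2. The T cell markers had the same order, at 0.339, 0.514 and 0.388 times the B2m promoter in summed signal. The promoters of all members were lowest in replicate 1 too. The part of other cell types in the class II values was not tested.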

How the data were processed

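DNase-seq of natural killer cells was read from the peak, footprint and cut-rate lists that the authors deposited per library for assembly mm10. The peak caller is not given in the sources used here. Peak signal is the deposited signal value, whose scale is not stated. The deposited cut-rate lists give a q-value (false discovery rate), used at 0.05 or less. The longer of 2 peak lists per library was used. The score of the deposited footprints is constant and was not used.

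Promoters were 500 bp on each side of protein-coding start sites (GENCODE vM21), open where a peak overlapped by at least 1 bp. Overlapping peaks were merged into regions. Start sites and introns of noncoding genes were not used in placing regions. Percentiles were taken within a library. Words were searched on both strands of the 250 bases before RefSeq start sites. Python 3.11.15, NumPy 2.4.6 and numba 0.67.0 were used, and the helper functions were tested on simulated data.

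The genes, lists and words were chosen with earlier results of these data known. Named were all members, and of each other list the 4 highest and 2 lowest open genes and those without a peak (class II: the highest and lowest). H2-Oa, Ciita and the markers named were chosen after their values were seen. Alternatives were promoter widths, the start site of the longest transcript, flanks, peak lists, overlap rules, word length and leaving out each replicate.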

Additional observations from a re-analysis of the deposited data

How the results depend on the processing

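All 8 members kept an open promoter and a promoter footprint in every library in the alternatives run, with exceptions for Tap2. With promoters of 250 bp, Tap2 lost both and the count was 7. The start site of the longest transcript was used for percentiles alone. There Tap2 lacked a promoter peak in at least 1 library, and 7 members had a value. The 59 regions in at least 2 replicates became 23 in the gene body alone and 143 with 50 kb on each side. Leaving out a replicate gave 33 to 56 regions: 56 without replicate 1, 34 without replicate 2 and 33 without replicate 3, since a region then has to be in both libraries left. The mean of 188 footprints per library became 81 in the gene body alone and 487.7 with 50 kb, and 163 to 231 when a replicate was left out. The median percentile of 95.0 fell to 89.9 in the better-scoring 50% of peaks. This fall follows from ranking without the lower peaks and tells nothing about the members. The median was 73.7 among promoters open in all 3 libraries, a scale chosen after the values were seen. It stayed within 94.0 to 96.7 when a replicate was left out. The share of unique words over all windows, 85.8%, was 80.9% with words of 24 bases. For single members, 84 of 126 recomputed values stayed within 1 SD or 1.5 times. The 126 include percentiles in the better-scoring 50% of peaks, which fall by construction. No paired analysis was possible because there is 1 group. The limits are 3 libraries, an unknown depth and no control group.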
